A study of Mus musculus with 2 samples.

Results

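Processed pseudogene transcripts were examined in RNA-seq libraries of differentiated mouse female germline stem cells (FGSCs). The members were all Ensembl transcript IDs of the count tables that the GENCODE M21 annotation types as processed_pseudogene or transcribed_processed_pseudogene. There were 10243 such IDs among the 129311 listed, 9942 of the first type and 301 of the second. The rule used only the annotation, and no count entered it.

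The series holds 2 libraries of the same condition, replicate 1 and replicate 2, so no groups of samples could be compared and no test was run. The cells were female FGSCs of strain CD-1, and the labels name no transgene or deletion. They were kept for 3 days as dispersed cells on a granulosa cell monolayer, with 10 μM retinoic acid and 10 ng/mL BMP4 and without GDNF, EGF and LIF. Polyadenylated RNA of a small number of collected cells was amplified by the Smart-seq2 method. The labels do not state whether the replicates came from separate cultures.

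The libraries differed widely in depth. Replicate 1 held 1517151 counts on 15412 IDs, so that 1 count was worth 0.659 CPM (counts per 1000000 counts). Replicate 2 held 12442 counts on 4259 IDs, so that 1 count was worth 80.4 CPM, and 3 counts, the floor used for folds, were worth 241 CPM. Why the totals differ so widely, and whether the second table holds all of its library, is not given in the sources used here, and this bears on every value of replicate 2. Germ cell markers (Ddx4, Dazl, Stra8, Sycp3 and others) reached 3 counts for 0 of 11 genes in either replicate. Such counts do not show absence, since the constitutive chaperone gene Hspa8 also had 0 counts in both. In RA-treated FGSCs the study detected Stra8 and Sycp3 by RT-PCR, and Stra8 also by immunofluorescence. Ifitm3 could not be assigned, with at most 10577 counts in replicate 1 and 6 in replicate 2 on IDs that might be its own. Granulosa cell markers reached 3 counts for 4 of 11 genes in replicate 1 (summed counts 712) and for 0 in replicate 2 (summed counts 3), with Foxl2, Amh and Cyp19a1 at 0 in both. Fibroblast markers did so for 5 of 10 genes in replicate 1 (summed counts 4379) and for 3 in replicate 2 (summed counts 16). The part of these cell types in the members' counts was not tested.

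A processed pseudogene is a copy of a messenger RNA that the reverse transcriptase of a LINE-1 element wrote back into the genome. Such a copy usually has no introns and no promoter of its own, and it often carries the remnant of a poly(A) tail. Genes that are strongly expressed in the germline, such as those of ribosomal proteins and glycolytic enzymes, have left the most copies in mammals. A recent copy still has nearly the letters of its parent, so short reads of the parent transcript and of the copy are hard to tell apart.

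The members had these features. They had 1 exon in 9258 of 10243 cases and a median exonic length of 531 bases (range 18 to 6514). A likely parent, the protein-coding gene with the best alignment over at least 50% of the member, was found for 9776 members (95.4%) and pointed to 2711 different genes. The median identity to the parent was 88.5% (quartiles 80.8% and 94.6%).

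The stretches below show a close and a distant copy beside the parent. Each covers 80 coding bases across an exon junction of the parent, written 5′ to 3′ from the transcripts of GENCODE M21 (GRCm38), and capitals mark bases that differ from the parent. The first set is Gapdh, the glycolytic glyceraldehyde-3-phosphate dehydrogenase, with the copy that had most counts in replicate 1 and the Gapdh copy that had most counts in replicate 2. Gapdh was read from chr6:125162843-125162877 and chr6:125162664-125162708, minus strand, joined after base 35. Gm13394 was read from chr2:28934046-28934125, minus strand, and Gm11929 from chr4:32207605-32207684, plus strand.
Gapdh: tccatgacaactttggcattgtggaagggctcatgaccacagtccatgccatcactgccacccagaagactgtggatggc
Gm13394: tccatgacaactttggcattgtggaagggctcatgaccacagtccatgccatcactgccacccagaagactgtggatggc
Gm11929: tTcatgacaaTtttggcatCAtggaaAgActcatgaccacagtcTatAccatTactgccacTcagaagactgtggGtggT

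Gm13394 had 0 differences in this stretch and Gm11929 had 12. The bases run across the parent's junction without an intron in both copies. Gm10284, another Gapdh copy with counts in both replicates, had 0 differences over the same stretch. The second set pairs Rps6, a protein of the small ribosomal subunit, with the member that had most counts in replicate 2. Rps6 was read from chr4:86855867-86855885 and chr4:86854895-86854955, minus strand, joined after base 19, and Gm44076 from chr6:116473106-116473185, plus strand.
Rps6: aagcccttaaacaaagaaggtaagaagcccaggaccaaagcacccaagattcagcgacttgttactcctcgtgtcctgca
Gm44076: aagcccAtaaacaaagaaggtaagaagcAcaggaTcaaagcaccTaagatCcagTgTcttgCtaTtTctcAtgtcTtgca

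Gm44076 differed from Rps6 at 12 of the 80 bases. The third set pairs Ppia, which encodes cyclophilin A, with a copy that matched it in full. Ppia was read from chr11:6415915-6415979 and chr11:6418101-6418115, plus strand, joined after base 65, and Gm10123 from chr9:96895662-96895741, plus strand.
Ppia: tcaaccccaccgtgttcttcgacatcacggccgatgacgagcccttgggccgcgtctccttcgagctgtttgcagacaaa
Gm10123: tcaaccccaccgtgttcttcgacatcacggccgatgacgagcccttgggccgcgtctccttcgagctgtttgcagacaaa

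Gm10123 had 0 differences here and an identity of 100% over its whole length. A read that lies within such a stretch does not tell the parent from the copy. The deposited tables do not say how reads with several equal matches were treated.

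Processed pseudogene transcripts took 64572 counts in replicate 1, which was 4.26% of the library (95% Wilson interval 4.22 to 4.29, counting error only). They took 859 counts in replicate 2, which was 6.9% (6.47 to 7.36). Most protein-coding transcripts were listed under protein accessions, which took 86.1% and 48.8% of the counts. Among the counts on Ensembl transcript IDs the members took 30.6% in replicate 1, more than any other transcript type, with mitochondrial ribosomal RNA next at 55370 counts. In replicate 2 they took 13.5% and came after retained introns, which had 1818 counts.

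At least 1 count was found on 2057 members in replicate 1, which was 20.1% (19.3 to 20.9) beside 11.9% of all listed IDs. In replicate 2 it was found on 382 members, 3.73% (3.38 to 4.11) beside 3.29% of all listed IDs. In both replicates it was found on 162 members, 1.58% beside 1.33%. The members' share was thus above the background in replicate 1 and close to it in replicate 2 and in both together. At 3 counts, 1172 members were reached in replicate 1 (11.4%, background 7.69%), 81 in replicate 2 (0.791%, background 0.891%) and 15 in both (0.146%, background 0.249%). No count was found in either replicate for 7966 members.

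The other large transcript types shown were counted less often than the members in replicate 1. Unprocessed pseudogenes, which arise by duplication of DNA and keep their introns, were counted for 3.55% of 2651 IDs and took 0.223% of the library. Long intergenic non-coding RNAs were counted for 5.36% of 8863 IDs and took 0.696%, retained introns were counted for 9.28% of 21842 IDs, and the protein accessions for 16.5% of 53245. Small types came as high or higher, among them mitochondrial RNAs, 5 of 24 unitary pseudogenes (20.8%) and 4 of 17 transcribed unitary pseudogenes (23.5%). In replicate 2 the unprocessed pseudogenes and long intergenic non-coding RNAs were counted for 2.26% and 3.68% of their IDs and took 2.02% and 6.37% of the library. There the members' 3.73% counted lay close to that of the long intergenic non-coding RNAs.

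The members that the annotation types as transcribed did not lead. Counts were found on 25 of 301 such members in replicate 1 (8.31%, 521 counts) and on 6 in replicate 2 (1.99%, 16 counts). The remaining members were counted for 20.4% and 3.78%. The 5 transcribed members with most counts in replicate 1 were Gm12346 (173 counts, copy of the chaperone gene Hsp90aa1), Gm18787 (76, Rbmx2), Gm1821 (56, the ubiquitin gene Ubb), Gm7435 (38, Rnf19a) and Gm6485 (30, the histone H3.3 gene H3f3b). All 5 were at 0 in replicate 2.

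The counts sat on few members. In replicate 1 the first member held 10.6% of the members' counts, the first 10 held 30.5%, and 42 members held 50%. In replicate 2 the first held 3.03%, the first 10 held 16.8%, and 59 members held 50%. The median count of a counted member was 4 in replicate 1 and 1 in replicate 2.

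Set beside all listed IDs, the overlap of the replicates was lower as a share of replicate 1 and similar for replicate 2. The 162 shared members were 7.88% of those counted in replicate 1 and 42.4% of those counted in replicate 2, beside 11.2% and 40.5% over all listed IDs. The share differed with the identity to the parent. Of members counted in replicate 2, 64 of 68 with at least 98% identity to the parent were also counted in replicate 1. So were 83 of 134 with 90 to 98% and 14 of 160 below 90%. Detection in replicate 1 itself rose with identity. Of all members, 67.8% were counted there at 98 to 100%, 52.6% at 95 to 98% and 20.7% at 90 to 95%. From 80 to 90% it was 6.25%, and below 80% it was 2.78%. Across all 10243 members the Spearman rho of the counts of the 2 libraries was 0.117, a description over points that share their library depth.

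**Figure D1:**
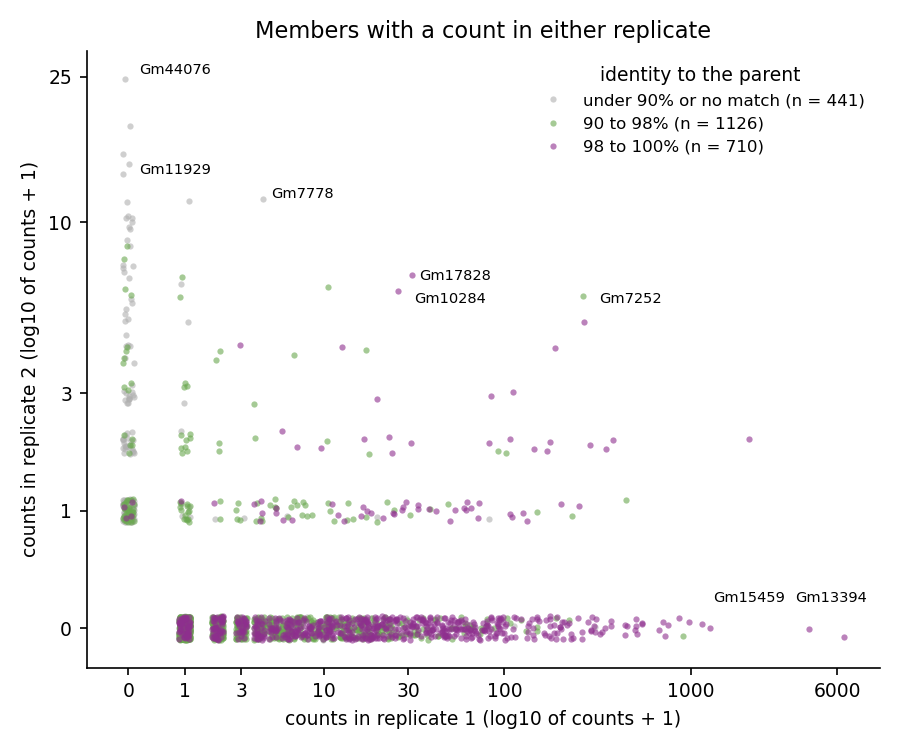
Counts of each processed pseudogene transcript with a count in either library, replicate 1 on the x axis and replicate 2 on the y axis, both as log10 of counts + 1 with tick labels in counts. Points were shifted slightly at random so that they do not hide each other, and colours give the identity to the likely parent. Members at 98% or more lie mostly along the x axis, up to 6862 counts for Gm13394, and members below 90% lead along the y axis, up to 26 counts for Gm44076.

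The replicates differed in how the counts were spread over identity to the parent. In replicate 1 the share of members with a count was 2.78% (2.18 to 3.54) below 80% identity, 6.25% (5.46 to 7.14) from 80 to 90%, 20.7% (19 to 22.5) from 90 to 95%, 52.6% (49.9 to 55.3) from 95 to 98% and 67.8% (64.9 to 70.6) from 98 to 100%. In replicate 2 it was 2.87%, 2.98%, 3.33%, 5.21% and 6.69% in the same order. In replicate 2 the interval of the last band was 5.31 to 8.39. These intervals treat members as independent, although copies of the same parent share sequence and all members share a library. They therefore do not compare the bands.

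The counts themselves followed the same split. The 1017 members with at least 98% identity were 9.93% of the members and took 81.8% of the members' counts in replicate 1 (52797 counts) but 13.3% in replicate 2 (114 counts). The members below 80% took 559 counts in replicate 1 and 166 in replicate 2, and those from 80 to 90% took 696 and 284. Median identity of the counted members was 96.7% in replicate 1 and 91.4% in replicate 2. The Spearman rho of count and identity over the 9776 members with a parent was 0.517 in replicate 1 and 0.0532 in replicate 2, and that of count and length over all members was 0.102 and 0.0873. These points share a library and its depth, and copies of the same parent share sequence.

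**Figure D2:**
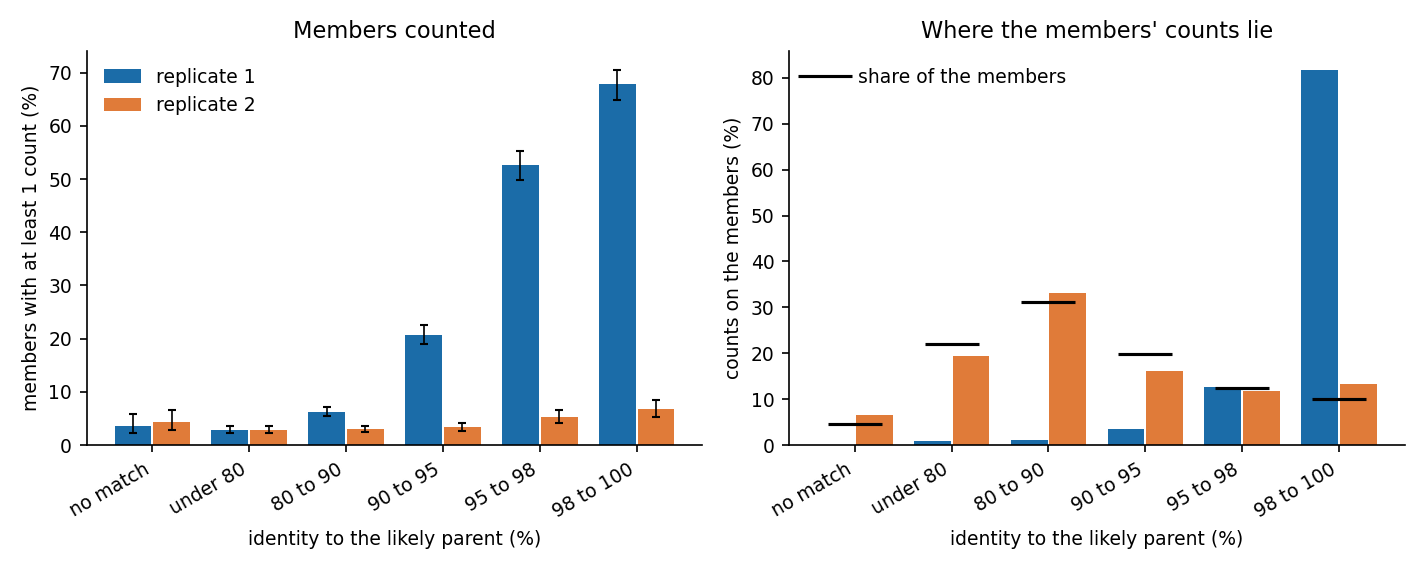
Left, the percentage of members with at least 1 count by identity to the likely parent, with 95% Wilson intervals as error bars. Right, the percentage of all counts on members that fell in each identity band, with black lines for the band's share of the members. Replicate 1 (blue) rises to 67.8% of the members and 81.8% of the counts at 98 to 100%, while replicate 2 (orange) stays near the share of the members in every band.

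A second measure of likeness was taken without alignment. Each member was divided into all its windows of 50 bases, and each window was looked up in the transcripts of all other annotated genes. None of the windows recurred for 4097 members, which took 0.733% of the members' counts in replicate 1 and 38.4% in replicate 2. Up to 50% recurred for 4237 members (14.1% and 43.7% of the counts), over 50% but not all for 1430 (73.5% and 16.6%), and every window for 474 (11.7% and 1.28%). The last class held 7541 counts in replicate 1 on members that no window of 50 bases tells from another annotated gene.

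The 15 members with most counts in replicate 1 fell in the families of ribosomal proteins, translation factors, chaperones and cyclophilins, and ubiquitin and proteasome in 11 cases. These families hold 30.6% of all members. Their grouping was not planned and the list was picked by counts, so the values are a description only. The last place was tied, as Rps2-ps13, left out by table order, also had 506 counts. Gm13394, the Gapdh copy shown above (chr2:28933610-28934609, 99.9% identity), had 6862 counts in replicate 1, or 4523 CPM (exact 95% binomial interval 4417 to 4631), and 0 in replicate 2. At the floor of 3 counts it was at least 18.8-fold lower in replicate 2, a bound that leaves out counting error, as do those below. It lies inside Cfap77 on the same strand. Gm15459 (chr5:5781615-5783555, 99.74% identity), a copy of the constitutive chaperone gene Hspa8, had 4167 counts (2747 CPM, 2664 to 2831) and 0, at least 11.4-fold lower in replicate 2. Most of it also lies in exons of Gm26825 on the opposite strand, and the strand setting of the counting was not given.

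Ribosomal and translation copies followed. Gm8730 (chr8:102864845-102865798), a copy of the stalk protein gene Rplp0, had 2005 counts in replicate 1 and 2 in replicate 2. It was the only 1 of the 15 with a count in replicate 2. Rpl3-ps1 had 1245 counts and 0, Gm11425 (Rpl12) 744 and 0, Gm8210 (Rpl29) 537 and 0, and Rpl14-ps1 506 and 0. The elongation factor copies Gm4366 (Eef1g) and Gm13456 (Eef1a1) had 1150 and 900 counts in replicate 1 and 0 in replicate 2.

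The remaining members of this list came from other housekeeping genes. Atp6v0c-ps2, a copy of a subunit of the vacuolar proton pump, had 979 counts in replicate 1, Gm10123 (Ppia) 871, and Pcna-ps2, a copy of the DNA polymerase clamp, 760. The proteasome copies Gm3375 (Psmb5) and Gm13835 (Psma3) had 724 and 539, and Gm7964, a copy of the RNA-binding protein gene Hnrnpk, 706. Each of these was at 0 in replicate 2. The fold bounds of the list ranged from 1.38 to 18.8, so the depth of replicate 2 bounds the difference only loosely for most of them.

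Identity was high throughout this list, at 98% or more for 14 of the 15 members, with the lowest, Gm13456, at 96.76%. All 15 had more counts in replicate 1 than the most that could be assigned to the parent gene. They were picked for their high counts, which favours this order, and the share over all counted members was not computed. Outside the list both orders occurred. Rps6-ps4 had 300 counts beside 78 of Rps6, and Gm13461 had 208 beside 7417 of Ran. Gapdh had 22 counts in replicate 1, Hspa8 0, Rplp0 652, Rpl3 16, Eef1g 7, Eef1a1 1, Ppia 2 and Rpl29 1. The parent of Gm13394 therefore had 22 counts beside the copy's 6862. Parents have several transcripts that share exons, and only 50.1% of the exonic bases of Gapdh, 45.6% of those of Hspa8 and 21.4% of those of Rpl29 belong to a single annotated transcript. Among other parents, Ran had 7417 counts at 15.2%, Hsp90aa1 2221 at 29.6% and Rpl35a 0 at 77.6%. No relation of this share to the counts was computed over all parents. Of the members, 9597 (93.7%) share no exonic base with any other transcript. The 238 members without any base of their own had 0 counted in either replicate. The part of the counting in these differences was not tested.

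**Figure D3:**
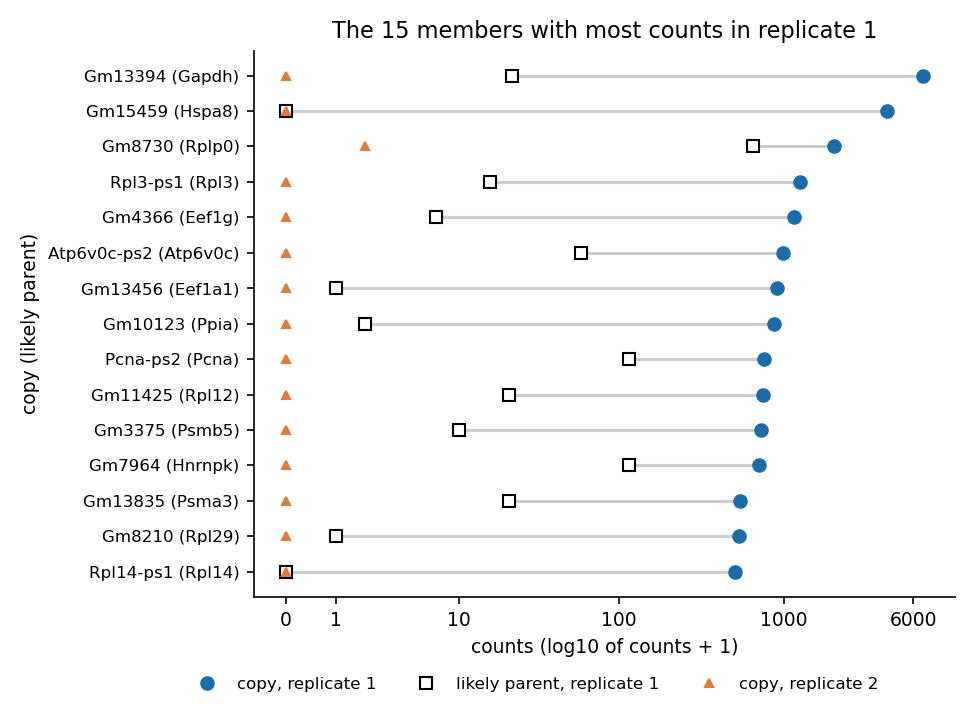
Counts of the 15 processed pseudogene transcripts with most counts in replicate 1 (blue circles), of the same members in replicate 2 (orange triangles) and of the likely parent gene in replicate 1 (open squares, the most that can be assigned), on a log10(counts + 1) axis. Each copy lies to the right of its parent, from 506 counts for Rpl14-ps1 to 6862 for Gm13394, and the triangles lie at 0 except for Gm8730 at 2.

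Per kilobase of exon Gm13394 still came first in replicate 1, while the order below it changed. Gm13394 had 4523 CPM per kilobase, Gm10736 2391, Gm15459 1415, Atp6v0c-ps2 1388, Gm8730 1385, Gm10123 1172, Gm11425 985 and BC002163 977. Gm10736, a copy of Rpl41, entered through its length of 78 bases, with 283 counts in replicate 1 and 2 in replicate 2. BC002163 is a copy of the complex I gene Ndufs5 and had 473 counts and 0.

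The 10 members with most counts in replicate 2 were other copies. Gm44076 (chr6:116472854-116473373, the Rps6 copy shown above, 79.17% identity) had 26 counts in replicate 2, or 2090 CPM (1365 to 3060), and 0 in replicate 1, at least 1057-fold lower there. Gm6203, a copy of the alpha-tubulin gene Tuba1c, had 18 counts and Gm6227, a copy of the neddylation enzyme gene Ube2m, 16, both with 0 in replicate 1. Gm11929 (Gapdh, 85.86%) and Gm13323 (the actin gene Actg1, 80.34%) had 14 each and 0 in replicate 1, at least 569-fold lower. These 5 members thus had counts in the shallow library and none in the deep one.

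The rest of the list behaved alike. Gm47853 (the vomeronasal receptor gene Vmn2r79), Gm13423 (nucleophosmin, Npm1) and Gm29704 (the ATP synthase subunit gene Atp5j2) had 11 counts each in replicate 2 and 0 in replicate 1. Gm4291 (Gapdh) had 11 and 1, and Gm7778 (Rpl35) 12 and 4. In all, 8 of the 10 were at 0 in replicate 1, and their identities ranged from 79.2% to 87.5%. At most 8.93% of their windows recurred in other genes. Of the 10, 0 lay inside another gene, beside 28.3% of all members and 5 of the 15 that led in replicate 1. These lists are too short to show a difference in position. Sycp1-ps1, a copy of a synaptonemal complex gene of meiosis that was picked out after its values were seen, had 9 counts in replicate 2 and 0 in replicate 1.

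In the other direction, 26 members in replicate 1 were above the 241 CPM that 3 counts are worth in replicate 2. Of these, 22 were at 0 in replicate 2 and 0 reached 3 counts. Their median identity was 99.3% and the lowest 96.8%. Over all listed IDs, 780 were above that level in replicate 1, of which 526 (67.4%) were at 0 in replicate 2 and 75 (9.62%) reached 3 counts.

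At least 3 counts in both replicates were reached by 15 members, of which 9 had at least 98% identity. Gm7252 (Rpl29) had 279 counts in replicate 1 and 6 in replicate 2, Gm7901 (the serine synthesis gene Phgdh) 184 and 4, Gm14150 (Tuba1b) 110 and 3, and Gm9761 (the splicing factor gene Srsf3) 84 and 3. In CPM, Gm7252 had 184 (163 to 207) in replicate 1 and 482 (177 to 1049) in replicate 2, with intervals that overlapped. Gm17828 (Rpl7a) had 30 and 7, which was 19.8 CPM (13.3 to 28.2) and 563 CPM (226 to 1159). Gm10284 (Gapdh) had 28 and 6, or 18.5 and 482 CPM.

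The others named here had fewer counts in replicate 1. Gm7327, a copy of the cap-binding factor gene Eif4e, had 20 and 3, Gm5070 (Rps2) 18 and 4, Gm3534 (Gapdh) 13 and 4, Gm48691 (the zinc finger gene Zfp934) 10 and 7, and Rpsa-ps5 7 and 4. Gm7778 had 4 and 12, Gm6428 (Eif1) 4 and 3, and Supt4b (Supt4a) 3 and 4. Equal counts stood for different CPM, since 1 count was worth 0.659 CPM in replicate 1 and 80.4 CPM in replicate 2. The ratio of the CPM in replicate 2 to that in replicate 1 was 2.62 for Gm7252 and 366 for Gm7778.

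Gapdh had left more counted copies than any other of the 10 parents examined. It had 368 copies, of which 136 were counted in replicate 1 and 18 in replicate 2, with 8444 and 67 counts in all. Gm13394 took 81.3% of those in replicate 1, and the next, Gm14760, had 137. Of the 35 copies with at least 98% identity, 34 were counted in replicate 1, with a median of 23 counts. Gm14760 and Gm5559 have the same identity of 99.9% as Gm13394 and had 137 and 129 counts, so copies equally close to the parent differed widely within replicate 1.

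**Figure D4:**
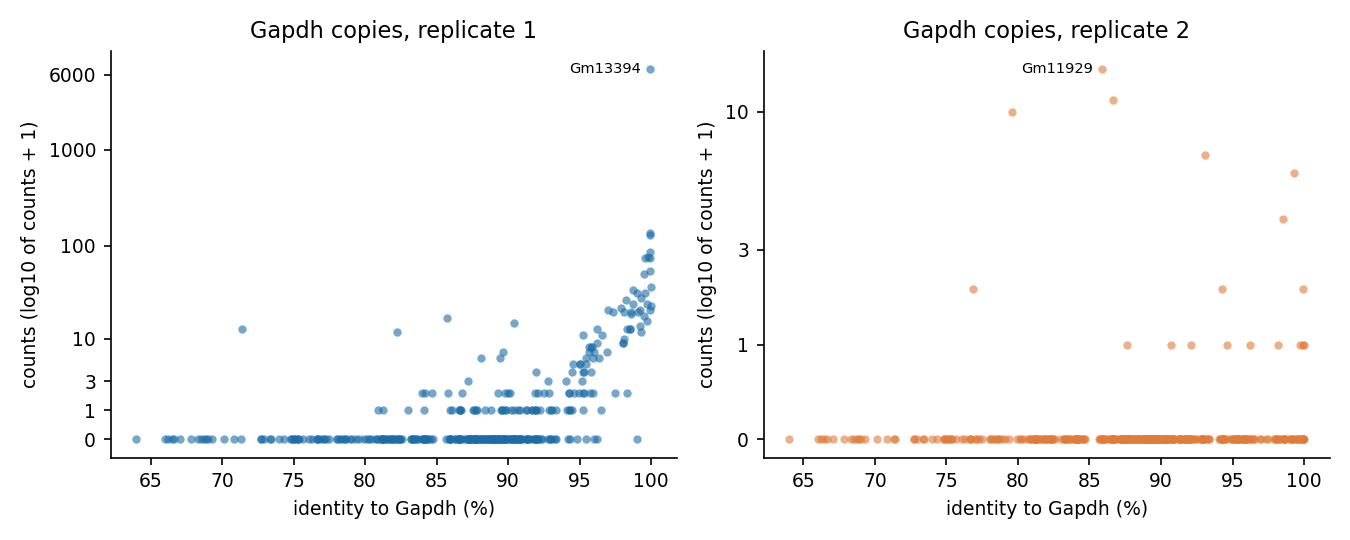
Counts of each of the 368 copies of Gapdh against the identity to Gapdh in percent, in replicate 1 (left) and replicate 2 (right), on log10(counts + 1) axes that differ between the panels. In replicate 1 counts rise towards 100% identity and Gm13394 stands apart at 6862, while in replicate 2 the highest copy, Gm11929 with 14 counts, has an identity of 85.86%.

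In other copy families the first copy took from 40.4% to 93.5% of the counts in replicate 1. Hspa8 had 18 copies with 4458 counts, of which Gm15459 held 93.5%. Rplp0 had 25 copies with 2701 counts, of which Gm8730 held 74.2%, and Ppia had 83 copies with 1253 counts, of which Gm10123 held 69.5%. Rpl29 had 143 copies with 1186 counts, of which Gm8210 held 45.3%. Rpl7a, with 185 copies and 522 counts, was the least concentrated, with 40.4% on Gm5619. In replicate 2 the families of Hspa8, Rplp0, Ppia and Rpl29 had 1, 3, 1 and 24 counts.

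Rps6 gave different copies in each library. Its 128 copies had 472 counts in replicate 1 and 32 in replicate 2. Rps6-ps4, which matches Rps6 over its whole length at 100%, had 300 counts in replicate 1 and 0 in replicate 2. Gm44076, at 79.17%, had 0 and 26. The first value was chosen for display after the values were seen.

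Members with identical sequence were compared with each other. In all, 126 members in 54 groups share their whole sequence with another member, and 15 groups had a count in replicate 1. In 10 groups the highest member had at least 10 counts, and in 6 of these it had at least 3 times the lowest. Gm8210 on chromosome 1 had 537 counts and Gm13841 on chromosome 5, with the same 483 bases, had 60. Gm10736 had 283 and Gm10180 2, over the same 78 bases. The 5 identical copies of Rpl35a, Rpl35a-ps6, Rpl35a-ps2, Rpl35a-ps3, Gm10243 and Rpl35a-ps4, had 88, 23, 8, 6 and 2. Other groups were closer to even, such as Gm11518 and Rpl27-ps3 with 49 and 37. In the 6 groups counts on identical sequences were not divided evenly, and whether reads that run past the copy's end differed was not tested.

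By parent family, copies of cytosolic ribosomal protein genes took the largest named share. They were 24.9% of the members and took 32.1% (31.8 to 32.5) of the members' counts in replicate 1 and 29.3% (26.4 to 32.5) in replicate 2. Of 2554 such copies, 25.8% were counted in replicate 1 and 4.54% in replicate 2. At 98% identity or more, 228 of 250 were counted in replicate 1 and 32 in replicate 2. With a stricter parent match (over 80% of the member at 90% identity) the share was 31.8% in replicate 1 and 16.2% in replicate 2.

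Glycolysis copies were 4.57% of the members and took 14.4% of the counts in replicate 1 and 8.96% (7.23 to 11.1) in replicate 2. Their second member in replicate 1, Gm6560, a copy of the pyruvate kinase gene Pkm, had 311 counts beside 5431 of the parent. Chaperone and cyclophilin copies took 9.84% in replicate 1 and 1.4% (0.801 to 2.43) in replicate 2, with 2.26% of the members. Translation factor copies took 5.19% and 2.79% (1.88 to 4.12), with 1.71% of the members. These families held more of the counts than of the members in replicate 1. For glycolysis as defined here this rested on Gm13394, without which the family took 4.18%. Copies whose best match was the gene Eno1b were not placed in this family. One of them, Gm4735, picked out after values were seen, had 462 counts in replicate 1. The family's share with these copies was not computed. The chaperone and cyclophilin copies took 3.63% without Gm15459.

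Copies of ubiquitin and proteasome genes took 3.05% of the counts in replicate 1 and 2.33% in replicate 2, those of splicing and RNA-binding genes 2.87% and 1.28%, and those of oxidative phosphorylation genes 2.72% and 1.98%. The first members in replicate 1 were Gm3375, Gm7964 and BC002163, given above. The second in the splicing family was Gm7935, a copy of the splicing factor gene Sf3b4, with 320 counts beside 3544 of the parent. The second in oxidative phosphorylation was Gm15920 (Ndufa12) with 299 beside 0. Copies of chromatin protein genes took 2.08% and 4.42%, led in replicate 1 by Gm9800 (prothymosin alpha, Ptma) with 133 and Gm13577 (Hmgb1) with 103. Cytoskeleton copies took 1.11% and 5.7% (4.34 to 7.46), led in replicate 1 by Gm12715 (Actg1) with 174 and Gm6180 (cofilin, Cfl1) with 120. The cytoskeleton copies thus held more of the counts than of the members (1.64%) in replicate 2 alone, and 2 of their members, Gm6203 and Gm13323, held 32 of the family's 49 counts.

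The smallest families were those of nuclear transport and of germ cell genes. Nuclear transport and GTPase copies took 0.367% of the counts in replicate 1 and 0.116% in replicate 2, led by Gm13461, a copy of Ran, with 208 beside 7417 of the parent. Copies of germ cell and pluripotency genes were 71 members, or 0.693%. Of these, 7 (9.86%) were counted in replicate 1 and 3 (4.23%) in replicate 2, beside 20.1% and 3.73% of all members. They took 23 and 6 counts, or 0.0356% and 0.698% of the members' counts. The first of them in replicate 1 were Gm7676 (Ifitm1) with 11 counts and Gm9788 (the pluripotency gene Dppa2) with 6. The 4971 members in no named family took 26.2% and 34.5%, and the 467 without a parent match 0.0666% and 6.52%.

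**Figure D5:**
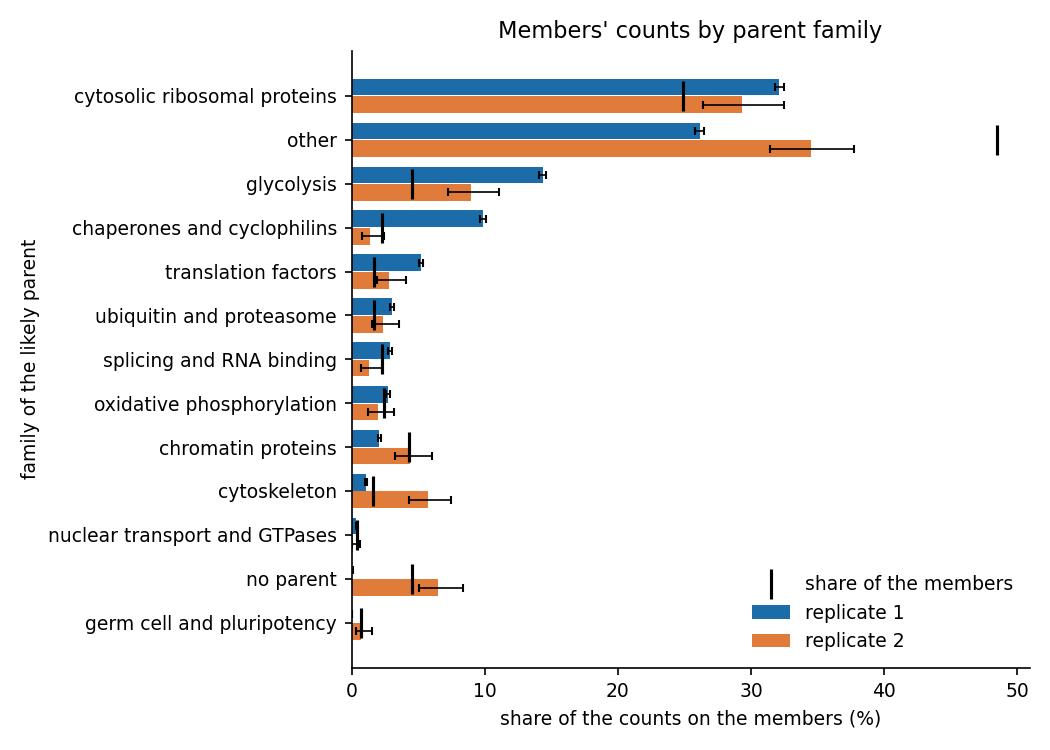
Share of the counts on processed pseudogene transcripts by family of the likely parent gene, in percent, for replicate 1 (blue) and replicate 2 (orange), with 95% Wilson intervals of counting error. Black lines give the family's share of the members. Ribosomal protein copies lie above their 24.9% of the members in both replicates, at 32.1% and 29.3%.

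In position, 2895 members (28.3%) lie inside the span of another gene. They were counted for 22.5% in replicate 1 and 3.8% in replicate 2, beside 19.1% and 3.7% of those outside. They took 42.2% of the counts in replicate 1 and 28.1% (25.2 to 31.2) in replicate 2. Without Gm13394 the share in replicate 1 was 35.4%. On the same strand as the surrounding gene lay 1143 members, with 21.7% and 10.1% of the counts.

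Members that share an exonic base with an exon of another gene were 419 and took 8.61% and 2.68%. Counted members were found on all 19 autosomes. Of 949 members on the X chromosome, 133 were counted in replicate 1, or 14%. That stood beside 20.1% of all members and 11.9% of all listed IDs, and the share of all X-linked IDs was not computed.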

How the data were processed

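The authors deposited 1 table of raw read counts per ID for each replicate, without normalization or pooling. The submitters' processing notes name FastQC, Trim Galore, HISAT2 2.2.1, featureCounts and the build mm10, whereas the study's methods describe other programs and FPKM, which the deposited counts are not. Settings for strand, overlapping features and reads with several matches are not given in the sources used here, so counts of near-identical copies are uncertain.

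IDs were matched to GENCODE M21 without their version (6 members matched only so). Members and lists were chosen with earlier results of these data known. Likely parents were found with BLAST 2.17.0 (plus strand, e-value 1e-10) among multi-exon protein-coding transcripts, over at least 50% of a member. Windows of 50 bases were searched in the annotated transcripts of other genes, in place of the genome planned, and the search was checked on simulated data. Parent counts joined Ensembl IDs with protein accessions placed by table order (45305 of 53245 in 1 gene). This placement was checked on 17404 hidden IDs, of which 99.98% fell in the right gene.

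Python 3.11.15 was used with pandas 2.3.3 and scipy 1.17.1. Shares of counts carry 95% Wilson intervals and CPM exact binomial intervals, both for counting error only, since Smart-seq2 reads carry no molecular identifiers. Wilson intervals on the share of members counted treat the members as independent. A fold was computed against 3 counts per library where the other library was at 0. It used the CPM itself and not its interval, so the bound leaves out counting error. With 2 libraries of the same condition no test was run. Named were the 15 members with most counts in replicate 1, the 10 in replicate 2, the 15 with at least 3 counts in both, 2 per parent family and 5 of the transcribed type, plus those said to be chosen after their values were seen. A member with at least 3 counts in both is not reported here by name. The 8 members highest per kilobase, and the members of the copy families and of the identical groups, were also added after values were seen. The printed stretches hold the most differences among 80-base stretches that cross a parent's exon junction without gaps. Alternatives varied the totals, count minimum, parent match, window length, position and single members.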

Additional observations from a re-analysis of the deposited data

How the results depend on the processing

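No paired analysis was possible because the samples form a single group, shared by both replicates. Replicate 2 rests on 859 member counts, which sets the precision of its shares. There 1 count is worth 80.4 CPM and 3 counts 241 CPM, so members at lower levels can be missed. The members' share of all counts in replicate 1 (4.26%) was 30.6% of the Ensembl-ID counts, 4.42% without the mitochondrial genome, 4.22% for the processed_pseudogene type alone, 3.89% without members that share exonic bases with other genes, and 3.8% without Gm13394. In replicate 2 (6.9%) it was 13.5% of the Ensembl-ID counts. Counted members (2057, 382 and 162 in replicate 1, replicate 2 and both) fell to 1172, 81 and 15 at 3 counts and to 670, 14 and 0 at 10 counts. The ribosomal share in replicate 1 (32.1%) was 40.2% per kilobase and 35.9% without Gm13394. In replicate 2 (29.3%) it was 38% per kilobase and 16.2% with the stricter parent match. The share on members with over 50% of windows recurring (85.1% and 17.9%) was 64.7% and 8.15% with windows of 100 bases, and 83.4% in replicate 1 without Gm13394. The share inside other genes (42.2% and 28.1%) was 21.7% and 10.1% on the same strand, 30.3% and 21.3% for protein-coding genes, and 36.2% and 33.7% without the first 10 members. It was 35.4% in replicate 1 without Gm13394. The share at 98% identity or more (81.8% and 13.3%) was 75.8% and 15.9% without the first 10 members. In replicate 1 it was 79.6% without Gm13394 and 80.5% without overlap with other genes. The glycolysis share in replicate 1 (14.4%) was 4.18% without Gm13394, and the chaperone share (9.84%) 3.63% without Gm15459. The alternatives on glycolysis, chaperones, identity and single members inside genes were chosen after seeing the data. With 1 replicate left out, the remaining values are by construction those of the other library and measure no dependence. The number counted was then 382 to 2057. The mean share of all counts ranged from 4.26% to 6.9%, the ribosomal share from 29.3% to 32.1%, the recurring share from 17.9% to 85.1%, the share inside genes from 28.1% to 42.2% and the share at 98% or more from 13.3% to 81.8%. In 18 other alternatives the value stayed within 1 SD, its interval or 1.5 times the count.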
